A study of Mus musculus with 2 samples.

Results

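Exhausted-type CD8 T cells were studied in single-cell RNA-seq of mouse pancreatic tumors, as 95 cells among 20428 kept barcodes, of which 63 came from the FLOX library and 32 from the library labelled MCT1-KO. They were chosen by their own transcripts. A barcode was kept with at least 500 UMIs (unique molecular identifiers, each standing for 1 captured transcript), 200 to 5000 genes and at most 8% mitochondrial UMIs. A T cell had at least 2 UMIs of Cd3d, Cd3e, Cd3g and Trac together, and a CD8 T cell also had at least 1 UMI of Cd8a or Cd8b1, no Cd4 UMI, at most 1 UMI of the tumor keratins Krt8 and Krt18, at most 2 UMIs of the macrophage genes C1qa, C1qb and C1qc, and no UMI of the cycling genes Mki67, Top2a and Birc5. Of these CD8 T cells, the exhausted-type ones were selected on at least 1 Pdcd1 UMI together with at least 1 UMI of Lag3 or Havcr2. The checkpoint-negative cells set beside them held no UMI of any of the 3 receptors, and the cells in between held some of them but not the pair.

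CD8 T cells kill tumor cells that show a foreign or mutated peptide. Under lasting antigen they pass into exhaustion, a state in which the inhibitory receptors PD-1 (Pdcd1), LAG-3 (Lag3) and TIM-3 (Havcr2) stay on the surface, the transcription factor TOX is kept on, and killing and cytokine release are limited. PD-1 is bound by PD-L1 on tumor and myeloid cells, LAG-3 by MHC class II, and TIM-3 by several ligands. A TCF-1 (Tcf7) positive precursor cell with PD-1 but little TIM-3 is known to feed the more differentiated cells that hold both.

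KPC cells, a mouse pancreatic cancer line, had been injected into the pancreas of C57BL/6 background mice, and the study asked how lactate uptake by pancreatic stellate cells bears on the immune cells of the tumor. FLOX mice carry the floxed MCT1 allele (Slc16a1, the monocarboxylate transporter that moves lactate across the membrane), and MCT1-KO mice carry it with Col1a2-CreERT2, a tamoxifen-inducible Cre that acts in Col1a2-expressing fibroblast-like cells and not in T cells. Tumors were taken 14 days after injection in one passage of the study and after 2 to 3 weeks in another, and cells were not sorted. There was 1 library per genotype. Mice received tamoxifen or corn oil before the tumor cells, but which of them the FLOX mice received is not stated. The purchased C57BL/6 mice were 8 weeks old. The age of the mice behind these libraries and their number were not given in the sources used here.

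The 2 libraries held 177334432 and 151118092 UMIs, with a median of 4069 and 3706 per kept barcode. In fibroblast-type barcodes, the cells in which Cre acts, Slc16a1 stood at 19.0 UMIs per 1000000 UMIs (CPM), from 11 UMIs in 80 barcodes, in FLOX and at 31.2 CPM, from 44 UMIs in 177 barcodes, in the other library, a ratio of 1.64 (95% interval 0.835 to 3.53). The targeted transcript was thus not measured as lower in the library labelled MCT1-KO, on few UMIs and with an interval that includes 1. A 3′ tag outside the deleted exons would not show a deletion, so this value cannot settle the label. Intervals throughout are exact 95% intervals that cover counting error only, not the spread between cells or animals. With 1 library per genotype there is no test of any difference, and genotype cannot be told apart from library. The kept barcodes of both libraries shared 59 sequences, none of them an exhausted-type cell in both.

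The stretches just upstream of Pdcd1 and Havcr2 are printed because these receptors define the cells. Each holds the 250 bases before the transcript start in RefSeq (GRCm38.p6), at chr1:94052554-94052803 on the minus strand for Pdcd1 and chr11:46454681-46454930 on the plus strand for Havcr2. Capitals mark letters that match a searched motif on either strand: NFAT (GGAAA), AP-1 (TGANTCA), STAT (TTCNNNGAA) or NR4A (AAAGGTCA).
Pdcd1: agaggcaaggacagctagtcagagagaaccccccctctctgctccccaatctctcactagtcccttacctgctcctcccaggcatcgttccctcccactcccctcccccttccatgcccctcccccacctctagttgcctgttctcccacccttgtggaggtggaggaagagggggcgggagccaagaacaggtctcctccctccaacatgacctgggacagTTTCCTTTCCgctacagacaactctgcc
Havcr2: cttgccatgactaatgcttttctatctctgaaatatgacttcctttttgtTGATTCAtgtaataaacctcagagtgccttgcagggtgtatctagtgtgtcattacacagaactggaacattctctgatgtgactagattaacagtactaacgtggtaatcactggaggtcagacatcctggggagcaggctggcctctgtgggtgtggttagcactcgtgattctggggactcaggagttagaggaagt

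In the Pdcd1 window the NFAT letters occurred 2 times, side by side on the opposite strand and 28 and 23 bases before the start. AP-1, STAT and NR4A letters were not in this window, and the Stat3 site assayed by the study lies farther upstream, outside it. The Havcr2 window held 1 AP-1 match, 200 bases before the start, and none of the others. Among 32851 windows of this length over 27025 genes, the NFAT letters were in 55.6%, the AP-1 letters in 6.75%, the STAT letters in 7.02% and the NR4A letters in 1.34%. A match is a description of letters and not a binding site. Lag3 and Tox have no entry in the table.

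Pdcd1 (ENSMUSG00000026285, chromosome 1, 94038305 to 94052553 on GRCm38) had 186 UMIs in the 63 FLOX cells and 85 in the 32 cells of the other library, or 786 CPM (677 to 907) and 674 CPM (539 to 834). Lag3 (ENSMUSG00000030124, chromosome 6, 124904361 to 124911705) had 93 and 35 UMIs, 393 and 278 CPM. Havcr2 (ENSMUSG00000020399, chromosome 11, 46454935 to 46481255) had 45 and 23 UMIs, 190 and 182 CPM. These levels follow from the selection and are given without a test. The ratio of MCT1-KO over FLOX was 0.86 for Pdcd1, 0.71 for Lag3 and 0.96 for Havcr2. Every member had to hold these transcripts, so the ratios describe the selected cells and do not compare the receptors between the libraries.

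Lag3 alone was the most frequent partner of Pdcd1. It was the only partner in 31 FLOX cells and 15 cells of the other library, Havcr2 the only one in 15 and 9, and both were found in 17 and 8. Depth differed between these combinations. In FLOX, cells with both partners had a median of 4653 UMIs, those with Lag3 alone 3463 and those with Havcr2 alone 2787. Just inside the threshold stood 13 FLOX cells and 5 others with 1 Pdcd1 UMI and 1 UMI of a partner. Just outside it stood 53 and 27 cells with Pdcd1 and no partner, and 14 and 14 with a partner and no Pdcd1.

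**Figure D1:**
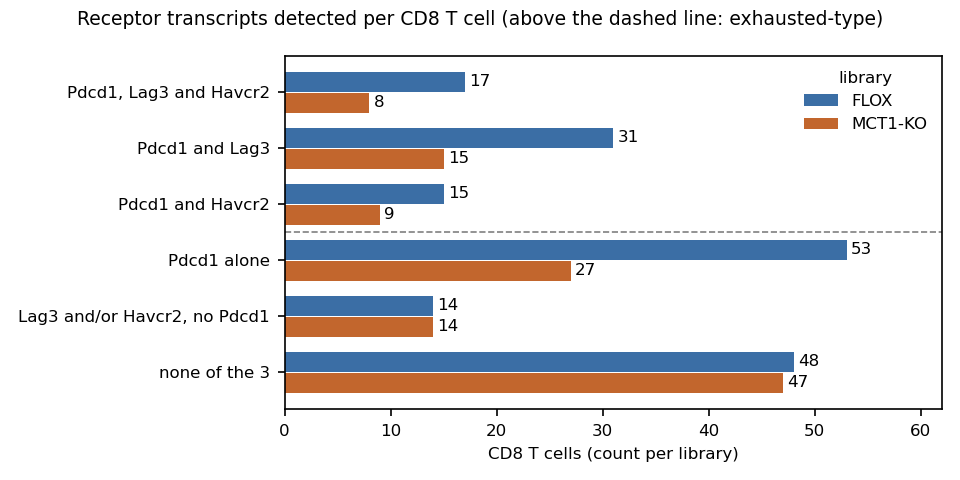
Number of CD8 T cells by which of Pdcd1, Lag3 and Havcr2 had at least 1 UMI, for each library. Pdcd1 with Lag3 alone was the most frequent exhausted-type combination in both (31 and 15 cells), and Pdcd1 without a partner was more frequent than that (53 and 27 cells).

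Exhausted-type cells made up 63 of 178 CD8 T cells in FLOX (35.4%, 28.4 to 42.9) and 32 of 120 in the library labelled MCT1-KO (26.7%, 19.0 to 35.5), so the intervals overlapped. Checkpoint-negative cells made up 48 of 178 and 47 of 120. The share depends on depth, since the members' median was 3491 and 3117.5 UMIs against 2587.5 and 2346 in checkpoint-negative cells. After each cell was thinned to 1000 UMIs before the rule was applied, 17 of 163 (10.4%, 6.19 to 16.2) and 4 of 75 (5.33%, 1.47 to 13.1) still qualified. Free RNA may also give receptor UMIs, though the shares below cannot tell it from a barcode's own expression. Macrophage-type barcodes had Pdcd1 in 0.386% and 0.696% of cells, Lag3 in 6.66% and 3.39%, and Havcr2, which macrophages themselves express, in 32.9% and 30.2%, at a median of 6164 and 5076 UMIs. Unthinned, Pdcd1 was present in 65.2% and 49.2% of CD8 T cells, far over its share in macrophage-type barcodes, while Havcr2 was present in 21.9% and 23.3%, below that of the macrophage-type barcodes. In barcodes of 10 to 100 UMIs, which mostly hold free RNA, Havcr2 stood at 10.3 and 7.16 CPM. The part of free RNA in the selection was not tested.

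The rule also left cycling cells out. Among cells that met every other term of the exhausted-type rule, 28 of 91 in FLOX (30.8%, 21.5 to 41.3) and 17 of 49 in the other library (34.7%, 21.7 to 49.6) held a UMI of Mki67, Top2a or Birc5. In checkpoint-negative cells the same held for 10 of 58 (17.2%, 8.59 to 29.4) and 16 of 63 (25.4%, 15.3 to 37.9). The share was higher in exhausted-type than in checkpoint-negative cells in both libraries, with overlapping intervals. It was higher still in the cells in between, at 38 of 105 (36.2%, 27.0 to 46.1) and 30 of 71 (42.3%, 30.6 to 54.6). These shares were not adjusted for depth. A further 7 and 3 barcodes were left out only for C1q UMIs, and 7 and 5 only for keratin UMIs.

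A few cells carried large amounts of transcripts of another cell type, and they bear on several values below. In FLOX, 3 exhausted-type cells held 1569 of the 1589 UMIs of the neutrophil genes S100a8, S100a9, Csf3r, G0s2 and Retnlg, and all 3 were among the barcodes marked by a doublet score. Another FLOX cell of 15892 UMIs held 1212 of 1253 UMIs of the fibroblast genes Col1a1, Col1a2, Col3a1, Dcn and Sparc and was not marked. One FLOX checkpoint-negative cell held 162 of 194 fibroblast UMIs. No exhausted-type cell of the library labelled MCT1-KO held 10 or more UMIs of either list. The counts of genes called in both libraries and between libraries, and the sums of both marker lists, are given with and without these cells, and other values include them unless stated.

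Of 1823 genes with at least 50 UMIs over both classes and libraries, 34 were at least 2-fold higher in exhausted-type than in checkpoint-negative cells in both libraries, which is 1.87% of the genes, and 18 were at least 2-fold lower in both, which is 0.987%. The cells were selected on 3 of the 34, so 31 others remained. The rule used this same contrast, so these counts describe the selected cells and nothing is tested by them. Exhausted-type cells held 236671 and 126075 UMIs in the 2 libraries, against 128474 and 118719 in checkpoint-negative cells. A gene of few UMIs thus reached the minimum of 50 more easily when it was high in exhausted-type cells. Taken 1 library at a time, 138 genes were 2-fold higher and 46 lower in FLOX, and 114 and 116 in the library labelled MCT1-KO. Within these counts, 10 genes were 2-fold in opposite directions, 7 of them higher in FLOX and 3 lower. Over all 1823 genes the median log2 ratio was 0.04 and 0.05. The log2 ratios of the 2 libraries correlated across genes with r = 0.23, where points share the depth of their cells. The 3 receptors of the rule are among these genes, and the selection set them high in both libraries. The value of r is thus partly built in by the selection, and it was not computed without them. Without the cells rich in neutrophil or fibroblast transcripts 35 and 20 genes were called, of which 30 and 17 were among the first set.

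Tnfrsf9, which encodes the activation-induced costimulatory receptor 4-1BB, stood out most clearly by its counts. In FLOX it had 146 UMIs in exhausted-type and 17 in checkpoint-negative cells (617 and 132 CPM), a ratio of 4.66 (2.81 to 8.22). In the other library it had 131 and 27 UMIs (1039 and 227 CPM), a ratio of 4.57 (3.002 to 7.19). It lies on chromosome 4, 150914562 to 150946102 (ENSMUSG00000028965). In FLOX the UMIs per exhausted-type cell ran from 0 to 15 with a median of 2, and 48 of 63 cells had at least 1, against 7 of 48 checkpoint-negative cells. In the library labelled MCT1-KO they ran from 0 to 12 with a median of 4, and 29 of 32 cells had at least 1, against 12 of 47. The classes overlapped in range, since a checkpoint-negative cell reached 9 UMIs in FLOX and another reached 5. With each cell thinned to 1000 UMIs, the share of exhausted-type cells with a Tnfrsf9 UMI was 41.3% in FLOX and 62.5% in the other library, against 6.67% and 11.9% of checkpoint-negative cells and 1.01% and 0.426% of macrophage-type barcodes. Unthinned, 76.2% and 90.6% of exhausted-type cells had one. Cells in between, with part of the receptor pair, lay between both classes at 419 and 565 CPM.

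**Figure D2:**
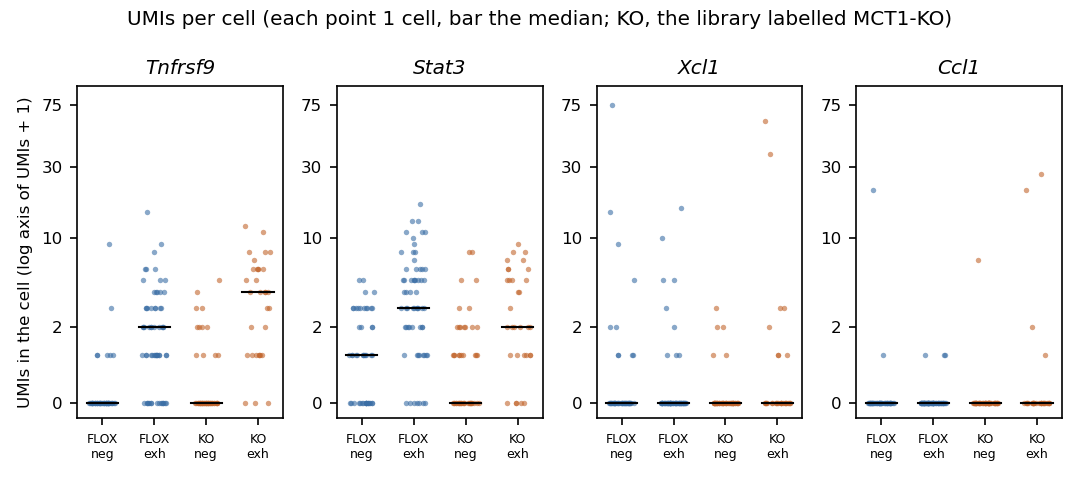
UMIs per cell of Tnfrsf9, Stat3, Xcl1 and Ccl1 on a log axis of UMIs + 1, each point 1 cell and the bar the median, for checkpoint-negative (neg) and exhausted-type (exh) cells of each library. Tnfrsf9 had a median of 2 and 4 UMIs in exhausted-type cells and 0 in checkpoint-negative cells, while most Xcl1 and Ccl1 UMIs sat in a few cells.

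Of 12 listed costimulatory receptors, 9 had enough UMIs, of which 2 were called higher and none lower. The second was Tnfrsf18, which encodes GITR, at 38 against 5 UMIs in FLOX (4.13, 1.62 to 13.4) and 40 against 13 in the other library (2.90, 1.52 to 5.90). Its relative Tnfrsf4, encoding OX40, had 24 against 1 UMIs in FLOX (13.03, 2.12 to 536) and 19 against 9 in the other (1.99, 0.86 to 4.99). Of the receptors for B7-family ligands on this list, neither Cd28 nor Icos was higher in both libraries. Cd28 had a ratio of 2.00 in FLOX and 0.71 in the library labelled MCT1-KO, and Icos had 0.77 and 0.38. The list's medians were 0.93 and −0.09 on the log2 scale.

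Of 16 further inhibitory receptors listed, 6 had enough UMIs and none was called in both libraries, with medians of 0.95 in FLOX and 0.10 in the other. Ctla4, whose product competes with CD28 for B7, had 188 against 61 UMIs in FLOX (1.67, 1.25 to 2.27) and 53 against 48 in the library labelled MCT1-KO (1.04, 0.69 to 1.57). Klrc1, encoding the inhibitory NKG2A, had ratios of 3.38 (1.66 to 7.77) and 1.95 (1.02 to 3.88). Tigit, another inhibitory receptor, had few UMIs, 29 against 7 and 11 against 8.

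Transcription factors tied to exhaustion were mostly higher by less than 2-fold. Of 17 listed, 12 had enough UMIs, 9 were higher in both libraries at any size, 1 was lower in both, and 1 was called. Over all genes tested, 32.04% were higher in both at any size and 25.1% lower in both. The list medians were 0.30 and 0.87. The called gene was Ikzf2, encoding Helios, a zinc finger factor of regulatory and chronically stimulated T cells, with 80 against 11 UMIs in FLOX (3.95, 2.09 to 8.22) and 65 against 23 in the other library (2.66, 1.63 to 4.49). Tox (ENSMUSG00000041272, chromosome 4, 6686353 to 6991557), the factor that maintains exhaustion, had 160 against 43 UMIs in FLOX and 69 against 39 in the other. Its ratios were 2.02 (1.43 to 2.90) and 1.67 (1.11 to 2.53), so it missed the 2-fold line in the second library. Nr4a2, an orphan nuclear receptor induced by T cell receptor signals, had 1.77 and 2.00. Id2, an inhibitor of E proteins that accompanies effector differentiation, had 1.27 and 2.47.

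**Figure D3:**
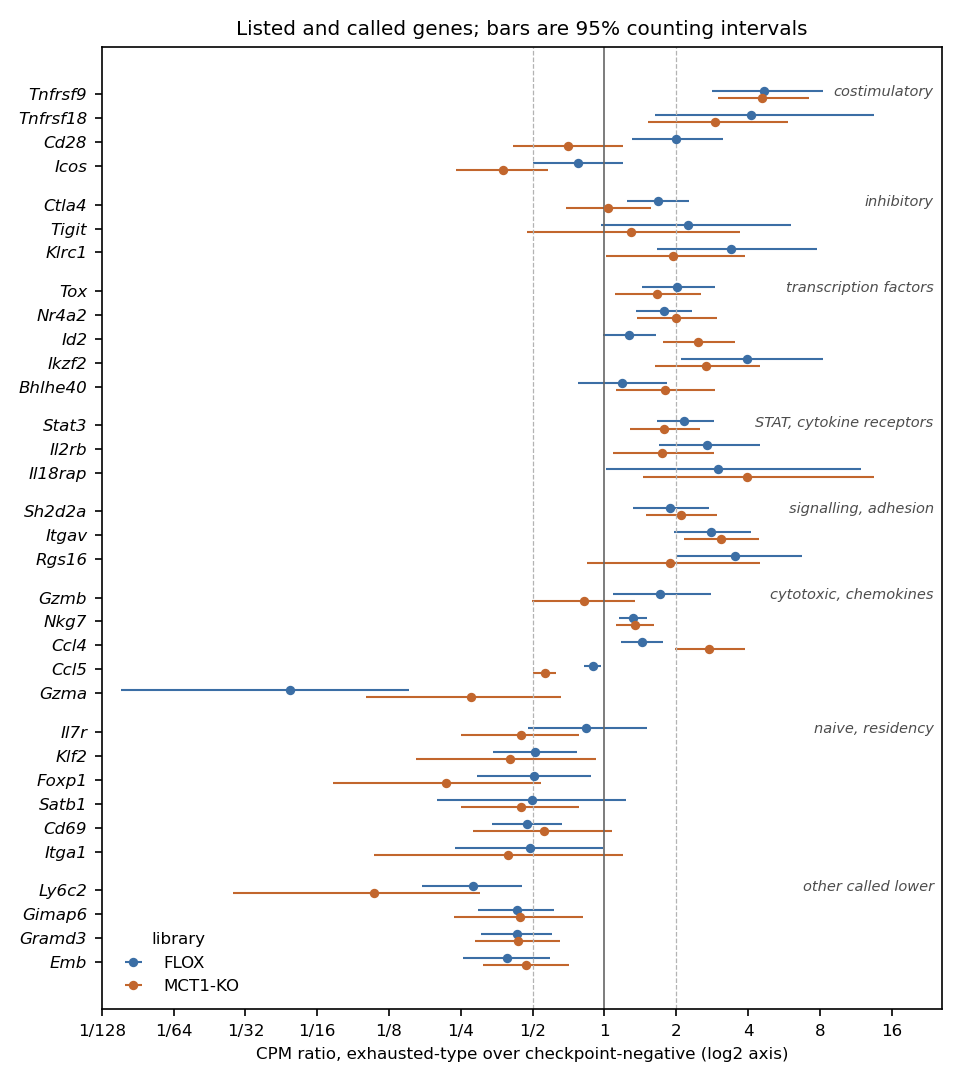
Ratio of CPM in exhausted-type over checkpoint-negative cells for genes of the gene lists and other called genes, on a log axis, with exact 95% counting intervals for each library. Tnfrsf9, Itgav and Ikzf2 lay above 2-fold in both libraries, Tox in FLOX only, and Gramd3, Gimap6 and Emb lay below 0.5.

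Cytokine receptors and STATs had 10 of 16 genes with enough UMIs. Of these 6 were higher and none was lower in both libraries, with medians of 0.54 and 0.35. Il18rap, a chain of the interleukin-18 receptor, was called at 22 against 4 and 21 against 5 UMIs (2.99 and 3.95). Stat3 (ENSMUSG00000004040, chromosome 11, 100885098 to 100939540), the factor downstream of interleukin-6 and interleukin-10 type cytokines, had 271 against 68 UMIs in FLOX, or 1145 and 529 CPM, a ratio of 2.16 (1.65 to 2.87). In the library labelled MCT1-KO it had 106 against 56 UMIs, or 841 and 472 CPM, a ratio of 1.78 (1.28 to 2.51). A Stat3 UMI was found in 56 of 63 and 27 of 32 exhausted-type cells. Cells in between lay in the middle at 811 and 753 CPM. Within exhausted-type cells Stat3 was at 0.73 of the FLOX level in the other library (0.58 to 0.92). In checkpoint-negative cells it was at 0.89, on 56 against 68 UMIs, and whether the classes differ in this was not tested. Both changes are under the 2-fold used for calls. Il2rb, the beta chain of the interleukin-2 and interleukin-15 receptors, had ratios of 2.69 and 1.75.

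Among the other genes called higher, Tcrg-C2 alone was on a list, that of gamma-delta T markers. Itgav, the integrin alpha-V chain that pairs with beta chains to bind matrix and latent TGF-beta, had 191 against 37 UMIs in FLOX (2.80, 1.96 to 4.10) and 137 against 42 in the other library (3.07, 2.16 to 4.45). When cells were thinned to 1000 UMIs before selection, which gave 4 members in the library labelled MCT1-KO, its log2 ratio there turned to −0.64. At least 1 Itgav UMI was found in 49 of 63 and 29 of 32 exhausted-type cells, against 16 of 48 and 14 of 47 checkpoint-negative cells. Thap12, encoding a THAP-domain protein, had the largest ratio by the library in which it was smaller, on few UMIs: 21 against 1 (11.4, 1.83 to 471) and 24 against 4 (5.65, 1.94 to 22.4). Thap12 only just reached the minimum of 50 UMIs, and did so through the exhausted-type cells, where it was high. The remaining genes of the leading 10 were Nrgn, a calmodulin-binding protein, Phlpp1, a phosphatase of AKT, Rnf19a, a ubiquitin ligase, and Rbl2, a retinoblastoma-family repressor, with ratios from 2.64 to 7.53. These ratios are on few UMIs. In the library labelled MCT1-KO, exhausted-type cells with and without Havcr2 had 10 and 6 Nrgn UMIs, 17 and 14 of Phlpp1, 6 and 6 of Rnf19a, and 10 and 4 of Rbl2. Under the same thinning Rbl2 turned to −0.033 on the log2 scale in FLOX. Tcrg-C2, a constant segment of the gamma T cell receptor, was also called (50 against 12 and 17 against 3 UMIs) and shares near-identical sequence with other gamma constant segments, so reads may be split among them. Windows upstream of the called genes were searched too: 24 of the 31 higher genes had one, and of their 30 windows 16 held the NFAT letters (53.3%), 2 the AP-1 letters (6.67%) and 3 the STAT letters (10%), against the shares over all windows given above. Of the 18 lower genes 12 had one, and of their 21 windows 14 held the NFAT letters (66.7%), 3 the STAT letters (14.3%) and none the AP-1 letters. The NR4A letters were in no window of either set.

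**Figure D4:**
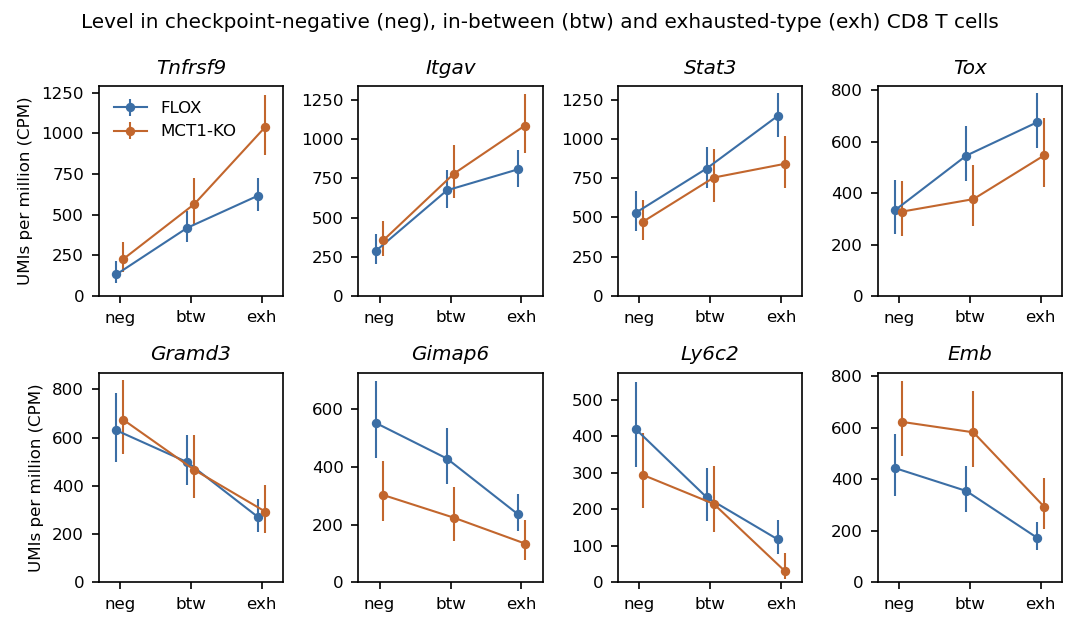
CPM of 8 genes in checkpoint-negative (neg), in-between (btw) and exhausted-type (exh) cells, with exact 95% counting intervals, in each library. Tnfrsf9, Itgav, Stat3 and Tox were highest in exhausted-type cells, and Gramd3, Gimap6, Ly6c2 and Emb lowest there, with the in-between cells at an intermediate level in both libraries. These 8 genes were picked, and summed lists did not all take this order. Cytokine receptors and STATs summed to 4056 and 3678 CPM in in-between cells, against 3938 and 3625 CPM in exhausted-type cells. Other inhibitory receptors summed to 1988 and 1390 CPM, against 1889 and 1372 CPM. Other lists, such as the exhaustion transcription factors, were intermediate in both libraries.

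Genes of naive and stem-like T cells were mostly at low counts. Of 15 listed, 6 had enough UMIs, 5 were lower and none higher in both libraries at any size, with medians of −0.97 and −1.16, the lowest of the function lists. Satb1, a chromatin organizer of early T cells, was called, 2.01-fold and 2.23-fold lower. Klf2, which maintains the program of recirculation, was 1.95-fold (1.30 to 2.93) and 2.48-fold (1.09 to 6.15) lower, and Foxp1, a quiescence factor, 1.97-fold and 4.60-fold lower. Satb1 in FLOX rested on 7 and 4 UMIs in exhausted-type cells with and without Havcr2. Foxp1 in the other library rested on 2 and 4, so both folds are on few UMIs. Il7r, the interleukin-7 receptor, had ratios of 0.84 (0.48 to 1.51) and 0.45 (0.25 to 0.78). Tcf7, the marker of the precursor cell, had 2 and 3 UMIs in FLOX and 0 and 2 in the other library in exhausted-type and checkpoint-negative cells, too few for a comparison.

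Among cytotoxic genes the direction was mixed. Of 16 listed, 10 had enough UMIs, 4 were higher and 3 lower in both libraries, and the medians were 0.36 and −0.12. Gzma, encoding granzyme A, was called lower, with 3 against 34 UMIs in FLOX (20.9-fold, 6.57 to 106) and 7 against 24 in the other (3.64-fold, 1.52 to 10.01). These UMIs sat in few cells, 1 exhausted-type and 5 checkpoint-negative cells in each library, and 18 of the 24 were in 1 cell. With the leading cell of each class left out, an alternative chosen after seeing the data, 0 against 19 and 0 against 6 UMIs were left. The log2 ratios were then −3.54 and −1.09, both set by the floor of 3 UMIs. Gzmb, encoding granzyme B, had a ratio of 1.72 (1.08 to 2.81) in FLOX and 0.82 (0.50 to 1.34) in the library labelled MCT1-KO. Nkg7, a granule membrane protein, was higher by 1.32 and 1.34. The other leading lower genes were Ly6c2, a surface protein of memory CD8 T cells, at 28 against 54 and 4 against 35 UMIs, Gimap6, a lymphocyte survival GTPase, Emb, the embigin partner of monocarboxylate transporters, Asxl2, a Polycomb-associated factor, the noncoding Gm2682, Gramd3, and Cd7. Gramd3, Gimap6 and Emb were between 2.12-fold and 2.56-fold lower. Thinning turned Gimap6 to a log2 ratio of 1.06 in the library labelled MCT1-KO, and barring any UMI of another cell type, which left 6 FLOX members, turned Emb to 2.06 in FLOX. Of the 38 checkpoint-negative Cd7 UMIs in FLOX, 26 were in 1 cell. The called Try5, Clps and Ctrb1 are digestive enzymes and cofactors of acinar cells, and thinning turned Try5 to a log2 ratio of 0.059 in the library labelled MCT1-KO. Their list summed to 110 CPM in exhausted-type and 249 CPM in checkpoint-negative cells of FLOX, and to 1689 and 3774 CPM in the other library, where barcodes of 10 to 100 UMIs stood at 16744 CPM against 329 CPM in FLOX. The part of free RNA in these 3 genes was not tested.

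Cytokines and chemokines had 8 of 19 genes with enough UMIs, 4 higher and 2 lower in both libraries, and none called. Ccl4, an inflammatory chemokine, had ratios of 1.43 (1.18 to 1.76) and 2.75 (1.97 to 3.88), and Ccl3, another, 1.09 (0.72 to 1.67) and 4.04 (2.36 to 7.31). Ccl5 was lower at 0.89 and 0.56, while remaining the most abundant of them at 6608 and 4069 CPM. Ifng, encoding interferon-gamma, had 79 against 34 UMIs in FLOX (1.26, 0.83 to 1.95) and 21 against 1 in the other (19.8, 3.18 to 818). Xcl1 and Ccl1 went in opposite directions in the 2 libraries, and their values without the leading cell are given in the closing section.

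Homing and residency genes had 11 of 19 tested, 5 higher and 5 lower in both. Itga1, the collagen-binding alpha-1 integrin of resident T cells, was called lower at 17 against 19 and 5 against 12 UMIs, and the early activation marker Cd69 had ratios of 0.47 and 0.56. Rgs16, a regulator of G protein signals, had 3.53 and 1.88. For T cell receptor signalling 21 of 26 genes were tested, 8 higher and 5 lower in both, with none called, and the adaptor Sh2d2a had 1.89 and 2.09. Lactate and glycolysis genes had 11 of 17 tested, 2 higher and 5 lower in both, with medians of −0.07 and −0.09. Ldha, lactate dehydrogenase A, had 0.82 and 0.93. Slc16a1 itself had 6 against 3 UMIs in FLOX and 1 against 4 in the other library, too few to compare. Interferon-induced genes (4 of 13 tested, 1 higher and 1 lower in both), heat shock genes (9 of 10, 2 and 2), AP-1 and immediate-early genes (9 of 9, 4 and 2) and cell cycle genes (2 of 16, 0 and 1) had no called gene.

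Markers of other cells were measured beside these results. All 10 macrophage markers together stood at 1977 and 1946 CPM in exhausted-type and checkpoint-negative cells of FLOX, and at 690 and 733 CPM in the other library, so both classes stood close within a library. Foxp3 and Cd40lg, which mark regulatory and helper T cells, were at 0 in both classes and libraries. Of 5 NK cell markers, exhausted-type cells held none. B and plasma cell markers stood at 12.7 and 23.4 CPM in FLOX and at 0 and 25.3 CPM in the other. Tumor markers stood at 46.5 and 31.1, and at 15.9 and 67.4 CPM. Endothelial markers stood at 21.1 and 7.78, and at 39.7 and 25.3 CPM. Gamma-delta T markers, Tcrg-C2 among them, stood at 215 and 202, and at 135 and 33.7 CPM. Neutrophil markers stood at 6714 and 117, and at 39.7 and 50.5 CPM, and fibroblast markers at 5294 and 1510, and at 79.3 and 118 CPM. Without the marker-rich cells the FLOX values were 87.9 and 116 CPM for neutrophil and 190 and 265 CPM for fibroblast markers. Dendritic cell markers stood at 283 and 288, and at 190 and 202 CPM. T cell receptor beta variable genes had 8 and 0 UMIs in exhausted-type cells, too few to describe clones.

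Within the exhausted-type cells, those with a Havcr2 UMI were compared with those without. The split itself uses measured counts, so it is a description. In FLOX, 32 cells with Havcr2 and 31 without had 60 and 19 Gzmb UMIs, a ratio of 3.01 (1.77 to 5.35). In the library labelled MCT1-KO, 17 and 15 cells had 23 and 10, a ratio of 1.88 (0.86 to 4.41). Ccl3 had 1.91 (1.15 to 3.26) and 3.76 (2.04 to 7.47), the latter on 60 against 13 UMIs where 28.1% of members held Ccl3. Ikzf2 went the other way, at 0.49 (0.29 to 0.79) and 0.74 (0.44 to 1.25). Ifng had 3.48 (2.01 to 6.35) in FLOX and 0.90 (0.35 to 2.36) in the other library. For cells with Lag3 against those without, Ikzf2 had 4.42 (1.66 to 16.6) and 1.53 (0.82 to 3.06), Stat3 1.57 and 1.30, and Gramd3 0.44 and 0.40. Because a member without Lag3 must hold Havcr2, both splits share cells. The marker-rich FLOX cells were spread unevenly over the splits. Cells without Havcr2 held 387 Sparc and 550 S100a8 UMIs, against 10 and 112 in those with it. Cells with Lag3 held 394 Sparc UMIs, against 3 without. Such transcripts add to the total by which each ratio is divided, and the splits were not repeated without these cells.

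Between the libraries, 1851 genes had at least 30 UMIs in exhausted-type cells. Of these 57 were at least 2-fold higher in the library labelled MCT1-KO, which is 3.08%, and 181 at least 2-fold lower, which is 9.78%. Without the marker-rich cells, 39 were higher and 124 lower of 1670 genes. Of those that could also be tested in checkpoint-negative cells, 4 of 21 higher genes and 36 of 83 lower genes passed 2-fold there as well. Over all 1152 genes tested in checkpoint-negative cells, 37 were 2-fold higher (3.21%) and 81 lower (7.03%). The median over all genes was −0.03. Each count compares 1 library with 1 other.

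Heat shock genes, chaperones induced by protein damage, had the lowest median of the function lists. All 10 were tested, 8 were 2-fold lower in the library labelled MCT1-KO, and their median log2 ratio was −1.66. Hspa1a had 82 UMIs in 23 FLOX cells and 0 in the other library, at least 14.6-fold lower against a floor of 3 UMIs over the group. Hsph1 had 77 and 3 UMIs, 13.7-fold lower (4.51 to 67.7), and Hsp90aa1 had 368 and 48, 4.08-fold lower (3.02 to 5.64). The same list had a median of −1.12 in checkpoint-negative cells, with 5 of 9 genes lower, and −1.33 in barcodes of 10 to 100 UMIs. Without the marker-rich cells 7 of 10 were lower. The same direction was thus measured outside the exhausted-type cells. Jun, an AP-1 subunit that tissue dissociation is known to induce, had 181 UMIs in FLOX and 12 in the other library, 8.03-fold lower (4.49 to 15.8), while Junb and Jund differed by ratios of 1.05 and 0.92. The AP-1 and immediate-early list had 4 of 9 genes lower and a median of −0.62, which became 1 of 8 and −0.21 without the marker-rich cells. The handling of each tumor is tied to its genotype, and the 2 cannot be told apart.

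**Figure D5:**
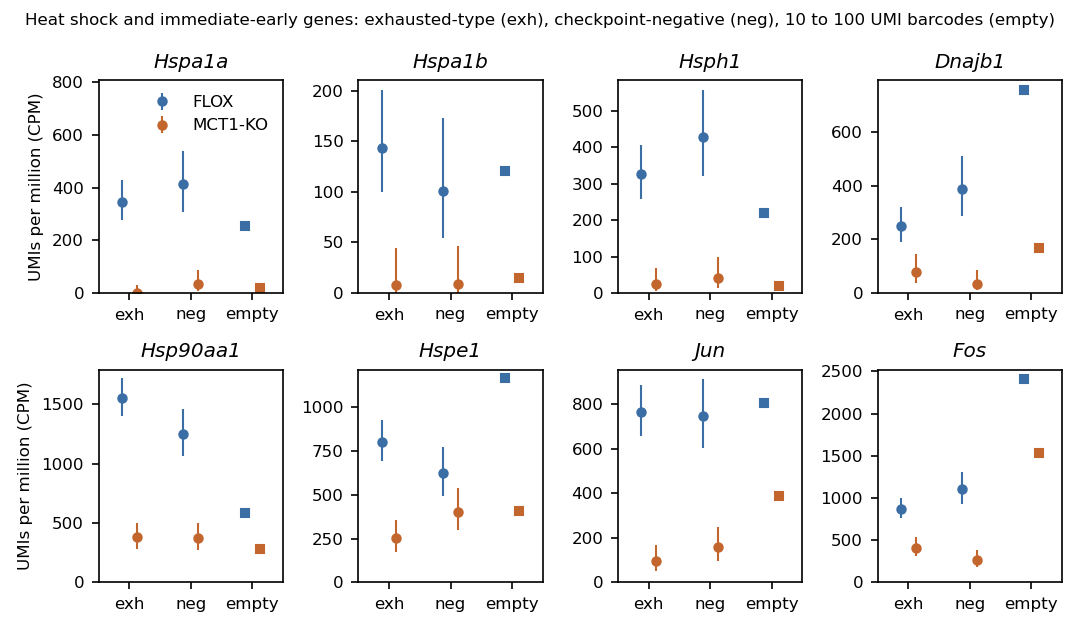
CPM of heat shock and immediate-early genes in exhausted-type (exh) and checkpoint-negative (neg) cells with exact 95% counting intervals, and in barcodes of 10 to 100 UMIs (empty, no interval drawn). For each of the 8 genes drawn, in all 3 kinds of barcode, the FLOX library, in blue, stood above the library labelled MCT1-KO, in orange.

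Of the 5 genes with the largest ratios in each direction, those lower in the library labelled MCT1-KO were S100a9, S100a8, Sparc, Col3a1 and Col1a2. Most of their FLOX UMIs came from the 3 cells and the 1 cell described above, which for S100a8 included 468 of 662 UMIs in a single cell. With those cells left out the lowest log2 ratios were those of Hspa1b (−4.25), Hsph1 (−3.91), Hspa1a (−3.76) and Jun (−2.92). In the library labelled MCT1-KO, Hspa1b rested on 1 UMI and Hsph1 on 3 UMIs. The value of Hspa1a is a bound set by the floor of 3 UMIs, so the order of these heat shock genes is not known. Higher in the library labelled MCT1-KO was Penk, which encodes the opioid precursor proenkephalin, with 1 UMI in FLOX and 40 UMIs in 9 cells of the other library (75.1, 12.7 to 3039). Penk was at 16 UMIs in a single checkpoint-negative FLOX cell, so it was present in both libraries. Ctrb1 and Prss2, acinar enzymes, had ratios of 45.7 and 13.6. In barcodes of 10 to 100 UMIs they stood at 4989 CPM against 109 CPM and at 1890 CPM against 48.3 CPM, and the part of free RNA in these ratios was not tested. The 2 further genes were Ccl1 (31.9, 10.3 to 160), a ligand of CCR8, and Xcl1 (4.52, 3.15 to 6.58), which attracts cross-presenting dendritic cells. In the library labelled MCT1-KO, the same 2 cells held 95 of the 106 Xcl1 UMIs and 48 of the 51 Ccl1 UMIs. With the 2 leading cells of each library left out, Xcl1 had 18 UMIs in FLOX and 11 in the other library, a ratio of 1.21, and Ccl1 had 1 and 3 UMIs, too few for a ratio.

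Among the lists of T cell function, exhaustion transcription factors had none of 12 genes 2-fold apart between the libraries, with a median of −0.22. Tnfrsf9 was higher in the library labelled MCT1-KO, at 1039 against 617 CPM (1.68, 1.32 to 2.15), and the ratio in checkpoint-negative cells was 1.72. Ctla4 was 1.89-fold lower (1.39 to 2.61). Homing and residency genes had 5 of 10 lower with a median of −0.97. The median was −0.59 in checkpoint-negative cells, with 4 of 9 lower, and −1.17 in barcodes of 10 to 100 UMIs. The 5 lower genes included Cxcr6, a receptor of tumor-resident T cells, at 126 and 24 UMIs (2.80-fold, 1.80 to 4.53), and Rgs1 at 167 and 22 (4.04-fold, 2.58 to 6.63). In checkpoint-negative cells these ratios of the library labelled MCT1-KO over FLOX were 0.42 and 0.39. Lactate and glycolysis genes had none of 11 apart by 2-fold. Of 4 interferon-induced genes 3 were lower and 1 higher, the latter being Irf8 at 18 and 29 UMIs (3.02, 1.62 to 5.78). Checkpoint-negative cells had 5 and 4 Irf8 UMIs, too few for a comparison. All 7 macrophage markers tested were lower (5 of 5 without the marker-rich cells), with a median of −2.00, against −1.67 in checkpoint-negative cells and −0.93 in barcodes of 10 to 100 UMIs. Their part in the other differences was not tested.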

How the data were processed

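Single-cell RNA was measured in 2 tumor libraries. The authors trimmed reads with Fastp, and the deposited values are raw counts, UMIs per gene and barcode made with SeekOneTools. The labels name a microwell kit and the study a droplet kit. GRCh38 and Seurat 4.0.0 are named in the submitters' processing notes, but the identifiers are of mouse, so the build used is unclear. Positions come from GENCODE vM21 (32158 of 32285 identifiers matched).

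Members, gene lists and comparisons were chosen with earlier results of these data known. UMIs were summed over cells per class and library and divided by the class total (CPM). Ratios have conditional exact intervals, shares Clopper-Pearson intervals (95%). Genes needed 50 UMIs over classes and libraries, or 30 between libraries. For a fold, a count of 0 was set to a floor of 3 UMIs. A call is 2-fold. Named genes were those of the gene lists, the 10 leading in each direction and the 5 between libraries. Further genes of the between-library comparison, and the genes of the subsets, were picked after their values were seen. Doublets were kept, apart from an alternative without the 8% with the highest scores. No test was made, since each genotype has 1 library and cells are not replicates. Scripts were tested on simulated data. Tables were read with pandas 2.3.3 and numpy 2.4.6 under Python 3.11.15. Intervals came from scipy 1.17.1, doublet scores from scikit-learn 1.9.0 and figures from matplotlib 3.10.9.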

Additional observations from a re-analysis of the deposited data

Results flagged for a closer look

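The chemokines Xcl1 and Ccl1 went in opposite directions in the 2 libraries when exhausted-type cells were set against checkpoint-negative cells. The ratio of Xcl1 was 0.213 in FLOX and 11.1 in the library labelled MCT1-KO. The ratio of Ccl1 was 0.0740 in FLOX and 6.86 in the library labelled MCT1-KO. The difference between the libraries was not tested, since each genotype has 1 library.

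Both genes rested on few cells, and a leading cell held much of each sum. The 2 genes shared these cells, so their ratios are not separate results. In FLOX, a checkpoint-negative cell of 4865 UMIs held 75 Xcl1 and 21 Ccl1 UMIs. In the library labelled MCT1-KO, an exhausted-type cell of 2667 UMIs held 59 and 27, and another of 7544 UMIs held 36 and 21. In FLOX, Xcl1 had 44 UMIs in 9 exhausted-type cells and 112 UMIs in 10 checkpoint-negative cells, 75 of them in 1 cell. In the other library it had 106 UMIs in 8 exhausted-type cells, 59 of them in 1 cell, and 9 UMIs in 5 checkpoint-negative cells. Ccl1 had 3 UMIs in exhausted-type and 22 in checkpoint-negative cells of FLOX, 21 of the latter in 1 cell. In the library labelled MCT1-KO, 4 exhausted-type cells held 51 UMIs, 27 of them in 1 cell, and 1 checkpoint-negative cell held 7. With the leading cell of each class left out, Xcl1 had 28 against 37 UMIs in FLOX, a log2 ratio of −1.28, and 47 against 6 in the library labelled MCT1-KO, a log2 ratio of 2.88. Of these 47 UMIs, 36 were in a second cell. With the 2 leading cells of each class left out, Xcl1 had 18 against 22 UMIs in FLOX, a ratio of 0.43, and 11 against 4 in the library labelled MCT1-KO, a ratio of 2.71 on few UMIs. This alternative was added after seeing the data. With 1 cell left out of each class, Ccl1 had 2 against 1 UMIs in FLOX, too few for a ratio, and 24 against 0 in the library labelled MCT1-KO, 21 of them in 1 cell.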

How the results depend on the processing

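The values were recomputed under 12 alternatives, of which leaving out the marker-rich cells and leaving out the leading cell of each gene were chosen after seeing the data. Of 522 values of the 25 called genes among the 55 genes followed, 5 turned to the opposite direction and 517 did not. The other called genes were not followed, and values that went missing under an alternative were left out. The 517 are values that were not reversed, which is less than a direction held in each. These genes were called for being 2-fold apart, and the alternatives draw on cells of the same 2 libraries. The count is therefore not an independent test of the calls.

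Thinning each cell to 1000 UMIs and applying the whole rule anew gave 17 FLOX members (10.4%) and 4 of the library labelled MCT1-KO (5.33%). These can include cells that the rule barred before thinning. This setting left 1 gene higher and 2 lower in both libraries, 3 higher and 8 lower between libraries, and 2 of 14 lists with both medians above 0, against 6. On these few cells the log2 ratio turned to −0.64 for Itgav and 1.06 for Gimap6 in the library labelled MCT1-KO, to 0.059 for Try5 there, and to −0.033 for Rbl2 in FLOX. Barring any UMI of another cell type left 6 FLOX members (18.2%) and 14 of the other library, with 3 genes higher, 3 lower, 7 and 14 between libraries, 1 list with both medians above 0, and Emb at 2.06 in FLOX. Fewer cells and fewer genes tested are part of both settings by construction.

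Requiring 2 Pdcd1 UMIs gave shares of 24.7% and 18.3%. Keeping cycling cells gave 49 members in the library labelled MCT1-KO and 103 genes higher there. Equal weight per cell gave 9 genes lower in both libraries. A minimum of 20 UMIs per gene gave 91 higher and 69 lower, and 127 and 334 between libraries. No paired analysis was possible because there is 1 library per genotype. The depth of 63 and 32 cells leaves genes of few UMIs, such as Tcf7 and Slc16a1, without a usable ratio.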
